A study of Mus musculus with 12 samples.

Results

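Growth hormone acts on the liver through its receptor, the kinase JAK2 and the transcription factors STAT5A and STAT5B, and 9 genes of this route were followed in livers of mice without the phospholipid transporter Abcb4. They were Ghr, Stat5a, Stat5b, Socs2, Socs3, Cish, Igf1, Igfals and Bcl6, and their members on the array were taken by name alone, as every gene probe that the scanner files assign to one of them. This gave 9 of the 15373 genes tested, on 18 of the 41174 gene probes, and 17 of the 18 were bright enough to stand among the 21688 tested probes. Abcb4(-/-) mice received CA, which is cholic acid, or UDCA, which is ursodeoxycholic acid, over 9 weeks. Their liver RNA was set beside that of Abcb4(+/+) livers on 12 Agilent arrays in 2 colours, 6 arrays per diet. Mice that lack Abcb4 secrete bile without phospholipid and develop an inflammatory and scarring disease of the bile ducts. CA is a primary bile acid and was fed to raise disease activity, while UDCA is a more hydrophilic bile acid used as a drug and was fed to lower it. Each diet group held 5 knockout livers without pooling, and 1 of them was hybridised again with the dyes exchanged, so that a pair of arrays in each group shares a liver and p-values are slightly too small. All knockout livers came from mice given a bile acid, so genotype and diet cannot be told apart in a ratio to wild type. The sources used here do not state sex, strain or age, what the wild-type mice ate, or the doses.

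Binding of growth hormone to its receptor activates JAK2, which phosphorylates STAT5, and STAT5 then moves to the nucleus and binds DNA at palindromic sites. In liver its targets include Igf1 and Igfals, whose products form the circulating IGF complex, and Cish and Socs2, whose products damp the receptor. Bcl6 encodes a transcriptional repressor that is held down by growth hormone in liver and binds many of the same sites as STAT5. The pattern of growth hormone release differs between male and female rodents and gives the liver much of its sex-biased expression, including that of cytochrome P450 and urinary protein genes.

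The usual STAT5 site reads TTCNNNGAA, which is the same on both strands, and it was searched in promoter windows from 250 bases before to 50 bases after each annotated start (RefSeq, GRCm38.p6). Of the 9 genes, 8 had at least 1 window, and 4 of them, Socs3, Cish, Igfals and Bcl6, held the motif in 6 of the 14 windows of the 9 genes. Over all promoter windows of the same length, 2726 of 32851 held it (8.3%). The matched stretches are given 5′ to 3′ on the strand of the gene, with the motif in capitals, because these are the genes whose ratios are compared below.
Cish, chr9:107296654-107296683, plus strand: cagttTTCCTGGAAagTTCTTGGAAatctg
Socs3, chr11:117969502-117969530, minus strand: gaaaccagccTTCTTAGAAgggagggggg
Igfals, chr17:24877598-24877626, plus strand: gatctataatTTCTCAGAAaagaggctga
Igfals, chr17:24878163-24878191, plus strand: ctgccaggtgTTCCTAGAAgaggccctgg
Bcl6, chr16:23981433-23981461, minus strand: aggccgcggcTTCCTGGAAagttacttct
Bcl6, chr16:23981387-23981415, minus strand: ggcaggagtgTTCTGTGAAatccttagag
Bcl6, chr16:23981353-23981381, minus strand: atcgactacgTTCCGGGAAtgagagggct
Bcl6, chr16:23988952-23988980, minus strand: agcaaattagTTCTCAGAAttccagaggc
The Cish stretch holds 2 motifs, which begin at the annotated start and 11 bases after it. Counted from the annotated start as 0, Bcl6 holds motifs at −168, −122 and −88 in the window of its first start, and 1 at −118 in that of another start. No match was found in the windows of Ghr, Stat5a, Stat5b and Igf1, which says only that these letters are not in those windows.

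The labels were checked first on Abcb4 itself: its probe A_52_P223194 was lower in the knockout on 6 of 6 CA and 6 of 6 UDCA arrays (log2 ratio −2.73 and −1.77), and A_51_P249118 on 5 of 6 in each group (−0.73 and −1.28). The hepatocyte markers Alb, Ttr, Apoa1 and Cps1 were well above background in both channels of all 12 arrays. All 4 Xist probes were too dim to be tested, while 5 of 7 Y-linked probes passed, with log2 ratios between −0.94 and 1.26 over the 12 arrays. Markers of other cells moved with the groups. Their array medians of the log2 ratio ran from 1.97 to 4.15 with CA and from 0.65 to 2.41 with UDCA for 6 cholangiocyte markers, and from 1.85 to 2.88 with CA and 0.47 to 1.53 with UDCA for 7 macrophage markers. For 6 stellate cell and fibroblast markers they ran from 1.04 to 3.24 with CA and from 1.85 to 2.87 with UDCA. For 9 hepatocyte markers they ran from −2.11 to 1.88 with CA and from −2.41 to 1.36 with UDCA. These hepatocyte medians split by dye in both groups. They were positive on every array with the knockout in Cy5 and negative on every array with it in Cy3. The part of these cell types in the results below was not tested, and in whole liver fewer cells of a type and less RNA per cell cannot be told apart.

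In the CA-fed knockout, 13 of the 17 tested probes changed, 5 higher and 8 lower than wild type, which is 76.5% against 59.6% of all tested probes (34.2% higher and 25.4% lower). The threshold was an adjusted p of 0.05 in limma, taken over all tested probes. In the UDCA-fed knockout 7 of 17 changed, all of them lower (8 lower and 0 higher at an unadjusted p under 0.05 in limma), or 41.2% against 23.4% of all probes (15.1% higher and 8.39% lower). The ratios differed between the diets for 4 of 17 probes, all higher with CA, or 23.5% against 26.9% of all probes, of which 16.4% were higher with CA and 10.5% lower. These 4 probes belong to Socs2, Socs3 and Bcl6. Of the 17, Socs2 A_52_P84037 and Ghr A_52_P54106 were bright enough only through the channel where each is higher, so their calls are part of these counts but support nothing. With the scanner's processed signals 4 probes were called with UDCA, 3 lower and 1 higher, the higher being Socs2 A_52_P84037. The share for the difference is close to that of all probes, so the number of such probes is not a result about these genes. When loess was replaced by median centring of the ratios, the calls were 3 with CA, 0 with UDCA by limma (1 at an unadjusted p under 0.05) and 1 for the difference, and 1 called UDCA estimate, of a Ghr probe, changed sign.

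**Figure D1:**
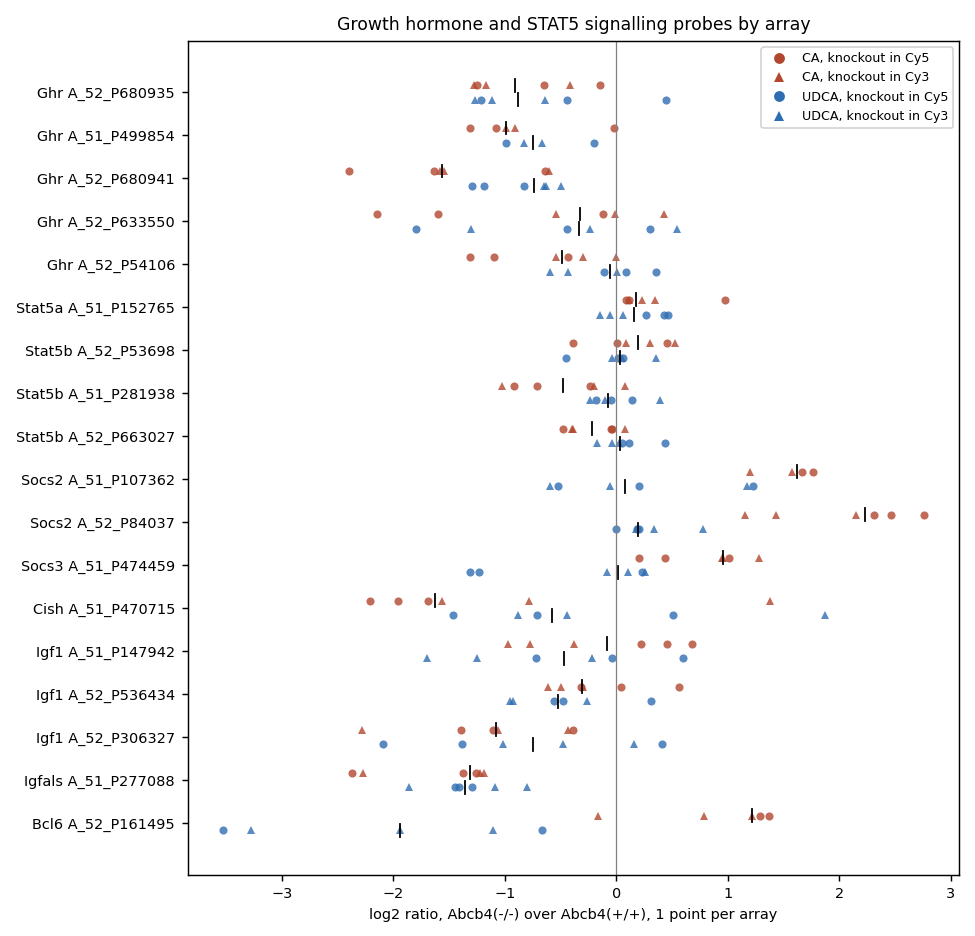
Log2 ratio of Abcb4(-/-) over Abcb4(+/+) for each of the 18 probes, 1 point per array, CA (red) above UDCA (blue) in each row. Circles are arrays with the knockout in Cy5, triangles arrays with it in Cy3, and the bars are group medians. Igfals lies left of 0 on all 12 arrays, and Bcl6 has its CA points right of its UDCA points when flagged values are left out.

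Ghr encodes the growth hormone receptor and was lower in the knockout with either diet on its 3 brightest probes. The probe A_52_P680941, whose mapped span of 7453 bases crosses an intron (mm7 chromosome 15, 3159367 to 3166819, minus strand), had log2 ratios of −2.40, −1.56 and −0.60 (lowest, median and highest of 6 arrays) with CA and of −1.29, −0.74 and −0.50 with UDCA. Every array lay below 0 and the diets overlapped. The estimates were −1.40 ± 0.18 with CA (SE, adjusted p = 8.4e-06 in limma, 2.64-fold lower) and −0.85 ± 0.18 with UDCA (adjusted p = 0.00266, 1.80-fold lower). The probe A_52_P680935 fell by 0.82 with CA and by 0.70 with UDCA on the log2 scale (limma, adjusted p = 0.0018 and 0.0134), lower on 6 of 6 and 5 of 6 arrays. Its UDCA call was lost under 6 of 24 alternatives, and that of A_52_P680941 under 2 of 24. Under centring on the median the CA call of A_52_P680935 was lost as well (−0.79, limma, adjusted p = 0.202).

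A_51_P499854, with values on 5 CA and 4 UDCA arrays, gave log2 estimates of −0.88 and −0.67. Under centring on the median only the UDCA value turned positive (0.35, limma adjusted p = 0.694), and the CA call was lost (−1.03, adjusted p = 0.079). Apart from that change of sign, its UDCA call was lost under 5 of 22 alternatives. These 3 probes were saturated in either channel on 2 to 4 of the 6 arrays of each group, which narrows the ratios that can be read. The other probes of Ghr carry the names of single cDNA clones. A_52_P633550 had estimates of −0.66 with CA and −0.49 with UDCA and passed the test in neither (limma, adjusted p = 0.0655 and 0.269). A_52_P54106 was above background on 4 of 6 CA arrays in the knockout and 5 of 6 in wild type, and on 2 of 6 UDCA arrays in either channel. It entered the test through the wild-type CA channel alone, and its estimates of −0.61 with CA and −0.11 with UDCA are a description. No Ghr probe differed between the diets, and for A_52_P680941 the 95% interval of the difference ran from −1.09 to −0.01 (limma, adjusted p = 0.119). That difference of −0.55 passed the test without CA array 2 (−0.77), with slide as a fixed block (−1.31) and in a fit of the authors' deposited table (−0.90).

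Of the STAT5 genes, Stat5a rose slightly with CA and the probes of Stat5b disagreed. Stat5a, probed by A_51_P152765, had log2 ratios of 0.09, 0.18 and 0.98 (lowest, median and highest) with CA and of −0.14, 0.16 and 0.47 with UDCA. It was higher on all 6 CA arrays, by an estimate of 0.31 ± 0.11 (SE, limma, adjusted p = 0.0275), and array 1 stood apart from the rest. Without CA array 1 the estimate was 0.20 and did not pass (limma, adjusted p = 0.113), as was the case without CA array 4 (0.30) or 5 (0.27). The Stat5a call was lost under 8 of 24 alternatives, among them a possible dye-swap pair averaged (0.31, limma, adjusted p = 0.0643) and slide as a fixed block (0.26, adjusted p = 0.204). With UDCA the Stat5a estimate was 0.17 (adjusted p = 0.324 in limma). For Stat5b, the bright probe A_52_P53698 had estimates of 0.17 with CA and −0.00 with UDCA, neither of which passed. The dimmer probe A_51_P281938, whose span of 1049 bases crosses an intron, fell by 0.50 with CA (limma, adjusted p = 0.00585) and had −0.01 with UDCA, where it was above background on 2 of 6 arrays. The third Stat5b probe, A_52_P663027, was too dim to be tested.

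Among the feedback inhibitors, Socs2 and Socs3 rose with CA and Cish fell. SOCS2 is a STAT5 target that binds the growth hormone receptor and promotes its degradation. The Socs2 probe A_52_P84037 carries the name of a cDNA clone. It lies at mm7 chromosome 10, 94949098 to 94949157, while the other Socs2 probe, A_51_P107362, lies at 94973417 to 94973476. The signal of A_52_P84037 was low in several channels. It was above background in the knockout on 6 CA and 3 UDCA arrays, and in wild type on 4 CA and 1 UDCA array. It entered the test through the CA knockout channel alone, so its values are a description, and its wild-type levels lie near background. The ratios were 2.76, 2.47, 2.32, 2.15, 1.43 and 1.15 on CA arrays 1 to 6, against 0.20, 0.19, 0.00, 0.34, 0.17 and 0.78 on UDCA arrays 1 to 6. All CA ratios lay above the UDCA ratios, and 9.79% of all probes with values on at least 4 arrays of each group did not overlap (6.02% with CA above and 3.77% with CA below). The estimates were 2.05 ± 0.17 with CA and 0.28 ± 0.17 with UDCA (SE), and the UDCA value depended on the setting, with 1.07 from processed signals and 0.80 with slide as a fixed block.

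A_51_P107362, the brighter Socs2 probe, was above background on all arrays. Its ratios on the 4 CA arrays with values were 1.76, 1.67, 1.57 and 1.20, against 1.23, 0.21, −0.52, 1.17, −0.59 and −0.06 on UDCA arrays 1 to 6, so that the diets overlapped. The estimates were 1.55 ± 0.27 with CA (limma, adjusted p = 0.000275) and 0.24 ± 0.22 with UDCA, and the difference of 1.31 ± 0.35 passed the test (adjusted p = 0.0151). With slide as a fixed block the CA estimate was 0.88 and did not pass (limma, adjusted p = 0.132). Under centring on the median it was 1.54 and did not pass either (limma, adjusted p = 0.051).

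The difference of Socs2 was smaller within slides. On slide 3, which held CA array 5 and UDCA arrays 1 and 2, CA was above UDCA by 1.23 for A_52_P84037 and by 0.48 for A_51_P107362. The knockout was in Cy3 on the CA array and in Cy5 on both UDCA arrays of slide 3, so diet and dye cannot be told apart there. On slide 4, which held CA array 6 and UDCA arrays 3 to 5, the value of A_52_P84037 was 0.98, and 0.89 against the UDCA arrays of the same dye. With slide as a fixed block the difference of A_51_P107362 was 0.06 (limma, adjusted p = 0.979), and that of A_52_P84037 was 1.03. The levels of the knockout channel alone did not overlap for A_51_P107362. They had a median log2 level of 12.58 with CA and 10.42 with UDCA, a difference of means of 2.15 (exact two-sided permutation test, p = 0.00476, the smallest 4 against 6 arrays can give, adjusted p = 0.019 over 8 tests). The probe was tested in this way because its ratios differed between the diets, so the p-value is a description and no separate support. The wild-type channel had 11.01 on the CA arrays and 10.16 on the UDCA arrays (exact p = 0.0429, adjusted p = 0.0857).

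Socs3 is induced by STAT3 and by growth hormone, and its product inhibits JAK kinases and the IL-6 receptor complex. Its ratios (A_51_P474459) were 0.44, 1.01, 0.21, 0.95, 1.28 and 0.96 on CA arrays 1 to 6, and −1.31, −1.24, 0.23, 0.11, 0.25 and −0.08 on UDCA arrays 1 to 6. It was higher on 6 of 6 CA arrays, and the 2 low UDCA arrays were both on slide 3. The estimates were 0.81 ± 0.17 with CA (SE, limma, adjusted p = 0.000836, 1.75-fold) and −0.34 ± 0.17 with UDCA (adjusted p = 0.177), with a difference of 1.14 ± 0.24 (adjusted p = 0.00311). Under centring on the median the rise with CA did not pass (0.97, limma, adjusted p = 0.079). Without UDCA array 3, Socs3 passed the test as lower with UDCA (−0.54, limma, adjusted p = 0.0199). Within slide 3, where diet and dye coincide, CA was above UDCA by 2.55. Within slide 4 it was above by 0.76, and by 0.78 against the UDCA arrays of the same dye. With slide as a fixed block the difference was 1.23 (limma, adjusted p = 0.0532). In the knockout channel alone the median log2 level was 12.78 with CA and 11.95 with UDCA, and the ranges overlapped (exact two-sided permutation test, p = 0.0584).

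Cish, a STAT5 target whose product binds phosphorylated receptors, varied widely between arrays of a group (SD 1.32 with CA and 1.20 with UDCA). Its ratios (A_51_P470715) were −1.69, −1.96, −2.21, −0.78, −1.56 and 1.38 on CA arrays 1 to 6, and 0.51, −1.46, −0.71, 1.87, −0.44 and −0.88 on UDCA arrays 1 to 6. On 5 of 6 CA arrays the knockout was lower, and CA array 6 went the other way. The wild-type log2 level was 11.68 on that array, against 12.99 to 14.20 on the other CA arrays. The estimate with CA was −1.14 ± 0.37 (SE, limma, adjusted p = 0.0154, 2.20-fold lower), and it did not pass without CA array 3 (−1.03) or 5 (−0.91). The Cish call was also lost with a possible dye-swap pair averaged (−0.93, limma, adjusted p = 0.0874) and with slide as a fixed block (−1.14, adjusted p = 0.0607). With UDCA it was −0.19 ± 0.37 (adjusted p = 0.771 in limma), and the diets differed only without CA array 6 (−1.38, adjusted p = 0.033).

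Igf1 encodes the main circulating growth factor made under growth hormone, and its probes did not give 1 answer. A_51_P147942, printed as 10 spots per array, had ratios of 0.46, 0.68, 0.22, −0.38, −0.77 and −0.97 on CA arrays 1 to 6. The UDCA arrays 1 to 6 gave −0.04, 0.60, −0.72, −1.25, −1.70 and −0.21. The 3 CA arrays with the knockout in Cy5 lay above 0 and the 3 with it in Cy3 below. The green channel was saturated on all 12 arrays, in wild type on arrays 1 to 3 and in the knockout on arrays 4 to 6 of each group. The dye term of this probe, added on Cy5 arrays and subtracted on Cy3 arrays, was 0.54 (limma, adjusted p = 0.0111), and its estimates after that effect were −0.13 with CA (adjusted p = 0.559) and −0.55 with UDCA (adjusted p = 0.035).

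The other bright Igf1 probe, A_52_P536434, was saturated in either channel on 6 CA and 4 UDCA arrays and had −0.18 with CA (limma, adjusted p = 0.268) and −0.48 with UDCA (adjusted p = 0.021). Both UDCA calls of Igf1 were lost under 10 or 11 of 24 alternatives, among them leaving out UDCA array 1, 3, 4 or 5, with estimates between −0.55 and −0.40. A_52_P306327 carries the name of a cDNA clone at the 5′ side of the gene and was not saturated. Its signal was low, with knockout log2 levels from 7.19 to 8.63 on the CA arrays, and in wild type it was above background on 4 of 6 UDCA arrays. It was lower on 6 of 6 CA arrays, from −2.28 to −0.38 with a median of −1.08 (estimate −1.11 ± 0.29, limma, adjusted p = 0.00386). The CA call was lost under centring on the median (−0.80, limma, adjusted p = 0.213). With UDCA this probe ran from −2.10 to 0.41 (estimate −0.73, adjusted p = 0.0797), and it passed without UDCA array 3 (adjusted p = 0.023).

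**Figure D2:**
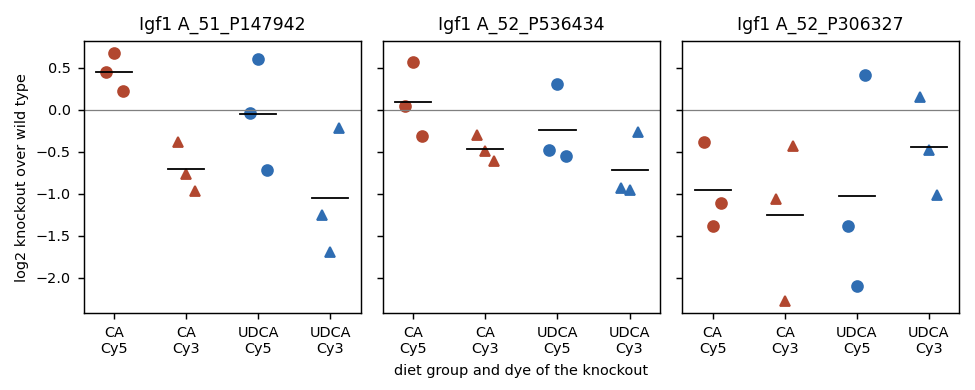
Log2 ratio of Abcb4(-/-) over Abcb4(+/+) for the 3 Igf1 probes, split by diet group and by the dye of the knockout, 1 point per array with bars at the mean of 3 arrays. For A_51_P147942 with CA the Cy5 arrays lie between 0.22 and 0.68 and the Cy3 arrays between −0.97 and −0.38, while A_52_P306327 shows no such split.

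Igfals encodes the acid-labile subunit, which holds IGF1 in the long-lived ternary complex of plasma, and it fell with either diet. Its ratios (A_51_P277088) were −1.37, −1.25, −2.37, −2.27, −1.18 and −1.22 on CA arrays 1 to 6, and −1.30, −1.45, −1.41, −1.09, −0.80 and −1.86 on UDCA arrays 1 to 6. All 12 arrays lay below 0 and the diets overlapped. The estimates were −1.61 ± 0.17 with CA (SE, limma, adjusted p = 1.3e-06, 3.06-fold lower) and −1.32 ± 0.17 with UDCA (adjusted p = 4.8e-05, 2.49-fold lower). The difference of −0.30 did not pass the test (95% interval −0.82 to 0.22, limma, adjusted p = 0.393). Neither call was lost when any array was left out. Both were lost under centring on the median, with −1.22 for CA (limma, adjusted p = 0.0539) and −0.84 for UDCA (adjusted p = 0.303).

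**Figure D3:**
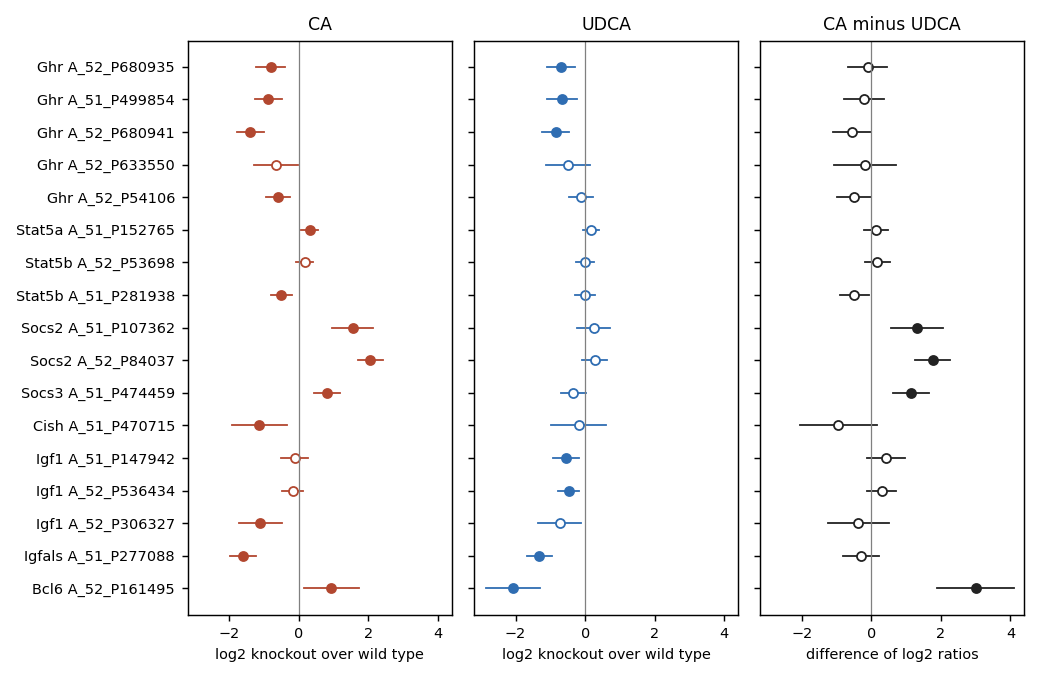
Estimates with 95% intervals for the 17 tested probes: Abcb4(-/-) over Abcb4(+/+) with CA, the same with UDCA, and the difference of both log2 ratios. Filled points passed the test at an adjusted p under 0.05. Igfals and the bright Ghr probes lie left of 0 with either diet, and the filled differences are those of Socs2, Socs3 and Bcl6.

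Bcl6 was higher than wild type in the CA-fed knockout and lower in the UDCA-fed knockout, with a difference of 3.00 ± 0.51 on the log2 scale (SE, limma, adjusted p = 0.00112, 8.02-fold). Its only probe, A_52_P161495, lies at mm7 chromosome 16, 23623679 to 23623738, on the minus strand. On the CA arrays with values, which were 1, 2, 4, 5 and 6, the ratios were 1.37, 1.29, 1.21, 0.79 and −0.16. UDCA arrays 1, 3, 4, 5 and 6 had −3.53, −0.67, −3.28, −1.11 and −1.94. The diets did not overlap on these 10 arrays.

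The scanner software flagged the Bcl6 spot on CA array 3 and on UDCA array 2, and both values were left out. Kept, they were 0.98 and 0.88, so UDCA array 2 then stood with the CA arrays and the diets overlapped. The estimate was 0.94 ± 0.36 with CA (limma, adjusted p = 0.0394, 1.91-fold) and −2.07 ± 0.36 with UDCA (adjusted p = 0.00097, 4.19-fold lower). With flagged values kept they were 0.91 (adjusted p = 0.0591) and −1.61 (adjusted p = 0.00784), and the difference was 2.52 (adjusted p = 0.00435).

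The levels of Bcl6 were also read in each channel. The knockout had log2 levels of 12.85, 13.06, 13.25, 14.07 and 13.71 on CA arrays 1, 2, 4, 5 and 6. It had 11.20, 10.66, 10.88, 11.06 and 10.90 on UDCA arrays 1, 3, 4, 5 and 6, a range of less than 1 log2 unit. The 2 sets did not overlap, and their means differed by 2.45 (exact two-sided permutation test, p = 0.00794, the smallest 5 against 5 arrays can give, adjusted p = 0.0212 over 8 tests). Bcl6 was tested in this way because its ratios differed between the diets, so the p-value is a description and no separate support.

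With flagged values left out, the wild-type livers varied far more. Their log2 levels were 11.48, 11.78, 12.04, 13.28 and 13.87 on the same CA arrays, and 14.73, 11.33, 14.16, 12.17 and 12.83 on the same UDCA arrays, and the means did not differ beyond this spread (−0.56, exact permutation test, p = 0.5). The flagged spot of UDCA array 2 read 14.94 in the knockout and 14.06 in wild type. With flagged values kept, the knockout levels overlapped and differed by 1.76 (exact permutation test, p = 0.0238, adjusted p = 0.0635). The UDCA-fed knockout then ran from 10.66 to 14.94, and wild type on the UDCA arrays from 11.33 to 14.73. The wider range of wild type did not hold there. The knockout channel was saturated on CA arrays 4 and 5, and the wild-type channel on UDCA arrays 1 and 2. With flagged values left out, the median level was highest in the CA-fed knockout (13.25), then in wild type on the UDCA arrays (12.83) and on the CA arrays (12.04). It was lowest in the UDCA-fed knockout (10.90). Of these neighbours, only the lowest is separated from the next without overlap. With flagged values kept, wild type on the UDCA arrays had the highest median (13.445), above the CA-fed knockout (13.26).

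Within slides the direction of the Bcl6 difference was the same with flagged values left out. On slide 3, CA array 5 was above UDCA array 1 by 4.32, with the knockout in different dyes. UDCA array 2 of that slide, left out as flagged, read 0.88 and lay above CA array 5 at 0.79. On slide 4, CA array 6 was above the mean of UDCA arrays 3 to 5 by 1.52, and by 2.03 against those of the same dye. With slide as a fixed block the difference was 2.98 and missed the threshold (limma, adjusted p = 0.0606). The rise with CA was lost under 10 of 24 alternatives, among them leaving out CA array 1, 2, 4 or 5 (0.85, 0.88, 0.82 and 0.93, adjusted p up to 0.131). The fall with UDCA was lost under centring on the median only (−1.52, limma, adjusted p = 0.0846), and it passed without any 1 of the arrays, with an adjusted p of at most 0.00581 (without UDCA array 1).

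**Figure D4:**
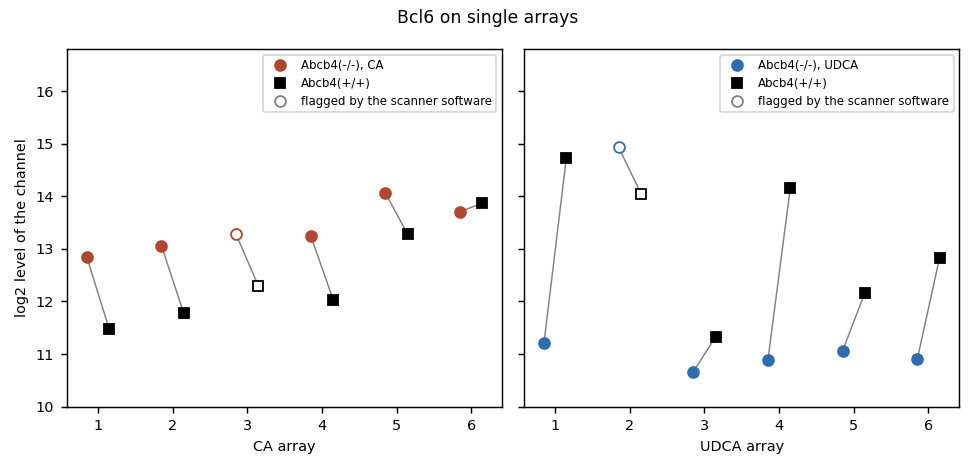
Log2 channel level of Bcl6 on each array, Abcb4(-/-) (coloured circles) left of Abcb4(+/+) (black squares), with CA arrays on the left and UDCA arrays on the right. Open symbols are spots flagged by the scanner software. Without them, knockout levels lie between 12.85 and 14.07 with CA and between 10.66 and 11.20 with UDCA, while wild-type levels run from 11.33 to 14.73.

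B cells of germinal centres are another source of Bcl6, and several of their markers were near background. Cd79a was above background on 0 of 12 arrays in either channel, and Ms4a1 on 2 in the knockout and 2 in wild type. Of 5 listed markers Cd79b alone was bright enough to be tested, and its estimate was 0.85 with CA (limma, adjusted p = 0.000251) and 0.38 with UDCA (adjusted p = 0.0923).

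The genes whose ratios followed Bcl6 most closely over the 10 arrays with a value were Zcchc3 (Pearson r = 0.96), Pde6d (0.95), Sort1 (0.94), Tcf3 (0.94) and Kansl1l (0.94), and those most opposed were Plin4 (−0.95), Slc23a1 (−0.95) and Ttc39a (−0.94). Plin4, a coat protein of lipid droplets, had estimates of −0.67 with CA and 1.25 with UDCA, the reverse of Bcl6. These were picked as extremes among 11361 genes over arrays that share diets, slides and dyes, and are a description. For Socs2 the closest were Klhl17 (0.91), Igflr1 (0.90) and Slc43a2 (0.90), over 10 arrays. For Igf1 the closest were Tspan31, Dazap2 and Grb7 (0.96 each), over 12 arrays, and these share with it the dye order of the arrays.

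Around these members, genes of growth hormone receptor signalling were counted next. Of 22 measured genes of that list, 15 rose and 1 fell with CA (median log2 ratio 0.42, against 0.10 over all 15373 genes, of which 60.3% changed, 37.8% higher and 22.4% lower). With processed signals 12 rose and 4 fell with CA, and with median centring 8 rose and 0 fell by limma. With UDCA 4 rose and 0 fell at an adjusted p under 0.05 in limma, or 5 and 1 at an unadjusted p under 0.05 (median 0.13, against 0.04 over all genes, of which 26% changed, 17.2% higher and 8.77% lower). Jak2 itself rose by 0.59 with CA and had 0.19 with UDCA. Grb10, an adaptor that inhibits insulin and IGF1 receptors, rose by 2.27 ± 0.18 with CA and 0.55 ± 0.18 with UDCA, and Sirpa, a phosphatase-binding receptor abundant on macrophages, by 2.19 and 2.03. Ptpn6, the phosphatase SHP-1 of blood cells, rose by 1.18 with CA. The macrophage markers given above moved with the same arrays, and their part in these values was not tested.

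In the IGF axis, 6 of 11 measured genes rose and 1 fell with CA, and 2 rose and 2 fell with UDCA. Over all genes 60.3% changed with CA (37.8% higher and 22.4% lower) and 26% with UDCA (17.2% higher and 8.77% lower). The share changed with CA is close to that of all genes, so this number is not a result about the list. With median centring, by limma, 4 rose and 0 fell with CA, and 2 rose and 0 fell with UDCA. Igfbp1, an IGF-binding protein of stressed and fasting liver, rose with both (1.78 and 1.41). Htra1, a protease that cleaves IGF-binding proteins, rose by 2.58 with CA and 1.68 with UDCA. The fetal growth factor Igf2 and the receptor Igf1r rose with CA (1.55 and 1.36) and had 0.34 and 0.06 with UDCA, and both differences passed the test (1.21 and 1.30, limma, adjusted p = 0.00371 and 0.000333). Igfbp2 fell by 1.45 with UDCA and had −0.14 with CA.

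Other receptors that signal through JAK and STAT proteins moved in both directions. Of 12 measured, 5 rose and 3 fell with CA, and 4 rose and 3 fell with UDCA. Over all genes 60.3% changed with CA and 26% with UDCA. The share changed with CA is close to that of all genes, so this number is not a result about these receptors. With median centring 3 rose and 3 fell with CA, and 2 rose and 1 fell with UDCA. The prolactin receptor Prlr, the closest relative of Ghr, fell by 2.47 with CA and 0.74 with UDCA on the log2 scale, and the difference of −1.73 passed the test (limma, adjusted p = 0.000104). Lifr, the receptor for leukemia inhibitory factor, fell by 2.44 and 2.20. Its relative Osmr, the oncostatin M receptor, rose by 3.12 and 1.57, and the interferon gamma receptor subunit Ifngr1 by 2.20 and 0.99.

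Male-biased genes that depend on growth hormone pulses had a list median below 0 with either diet, though not on every array. Their array medians ran from −2.41 to −0.17 with CA and from −2.70 to 0.78 with UDCA, where array 2 lay above 0. With CA they were −2.41 to −2.10 with the knockout in Cy3 and −1.56 to −0.17 with it in Cy5. The lowest with UDCA were arrays 4 and 5, both with the knockout in Cy3 (−2.70 and −2.44). Of 17 measured, 12 fell and 0 rose with CA (median −1.36), and 12 fell and 0 rose with UDCA (median −1.09), by limma at an adjusted p under 0.05. At an unadjusted p under 0.05, 12 fell with CA and 13 with UDCA, and again 0 rose. Over all genes 22.4% were lower with CA and 8.77% with UDCA at an adjusted p under 0.05 in limma. With median centring 8 fell with CA and 5 with UDCA. Hsd3b5, a male-specific steroid reductase, fell by 3.48 with CA and 4.11 with UDCA, on the log2 scale. Cyp7b1, an oxysterol hydroxylase, had log2 ratios of −2.78 and −2.89, and the urinary protein gene Mup5 had −3.47 and −2.08, all past the test. Mup genes are nearly identical copies, so their probes may read several of them. The fatty acid elongase Elovl3 fell by 2.75 with CA and 1.69 with UDCA. The diets differed for 3 of the 17, all lower with CA, among them the organic anion carrier Slco1a1 (−1.52). Over all genes they differed for 27.6%, with 18.8% higher and 8.88% lower with CA.

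Female-biased genes moved apart. Of 13 measured, 4 rose and 5 fell with CA (median −0.05), and 6 rose and 0 fell with UDCA (median 0.47), and the diets differed for 8, of which 7 were lower with CA. For this difference 3 were lower and 0 higher with median centring (limma), and 4 lower and 1 higher with processed signals. At an unadjusted p under 0.05 in limma, 7 rose and 1 fell with UDCA. With the scanner's processed signals the CA median was 0.32, while 4 rose and 5 fell as before. Among all genes the diets differed for 27.6%, with 18.8% higher and 8.88% lower with CA. Against wild type, 60.3% of all genes changed with CA and 26% with UDCA. Cyp2b9, a female-biased cytochrome P450, was lower than wild type by 2.23 ± 0.34 with CA and higher by 2.42 ± 0.34 with UDCA. Its difference was −4.65 ± 0.47 (SE, limma, adjusted p = 2.63e-05). Cyp2b13 had −1.34 and 2.30, and Cyp2a4 −2.18 (called) and 0.47 (not called), with differences of −3.64 and −2.65. Cyp3a16 and Cyp3a44, which are close in sequence to other Cyp3a genes, rose by 1.29 and 1.09 with UDCA and had −0.00 and −0.05 with CA. The Cyp2b genes are also known targets of the receptor CAR, so the list's name covers only part of their regulation.

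Of 15 liver transcription factors that act beside STAT5, 4 rose and 7 fell with CA, and 0 rose and 6 fell with UDCA (limma, and 0 and 8 at an unadjusted p under 0.05). Among all tested genes 37.8% were higher and 22.4% lower with CA, and 17.2% higher and 8.77% lower with UDCA. Those factors' counts were set beside these shares without a test of the list. The median of these factors with UDCA was −0.27, and 0.15 with median centring, where 1 fell. With median centring 1 rose and 0 fell with CA by limma, so none of the 7 falls passed there. Cebpa fell by 1.18 with CA and 1.12 with UDCA on the log2 scale, and Onecut1 fell by 0.86 and 0.43. Of 9 relatives and partners of Bcl6, 5 rose and 1 fell with CA, and 0 rose and 1 fell with UDCA by limma (1 and 1 at an unadjusted p under 0.05). Over all genes 60.3% changed with CA and 26% with UDCA. The share of Bcl6 relatives changed with CA is close to that of all genes, so this number is not a result about them. With median centring 2 rose and 0 fell with CA. The repressor Prdm1 rose by 0.79 and the corepressor Bcor by 0.70 with CA, and Bcorl1 fell by 0.87 with CA and 1.25 with UDCA. The diets differed for 0 of the 9 at an adjusted p under 0.05 in limma, and for 2 at an unadjusted p under 0.05.

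**Figure D5:**
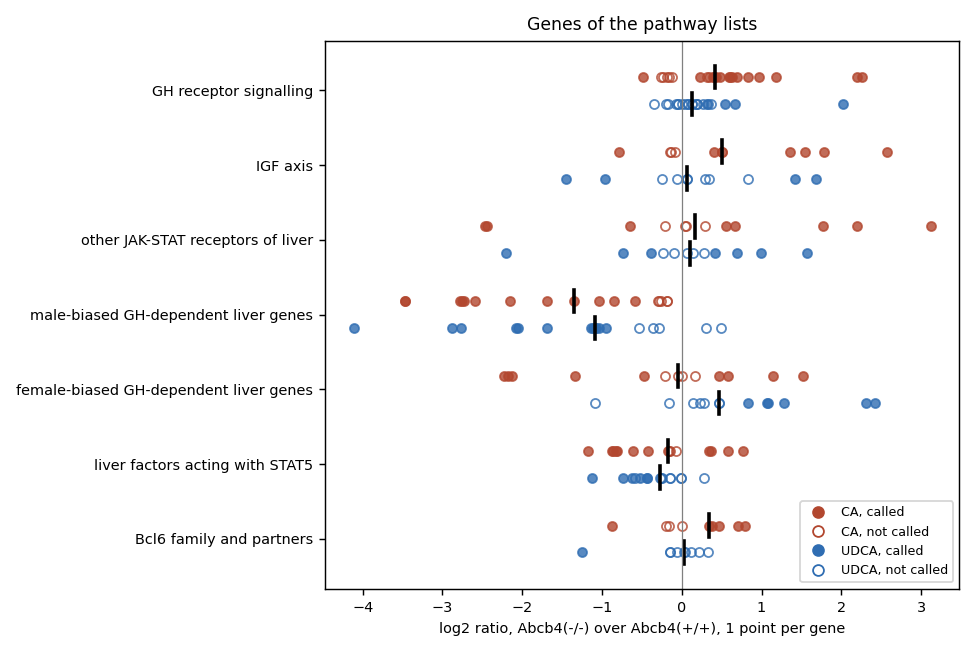
Log2 ratio of Abcb4(-/-) over Abcb4(+/+) for every measured gene of 7 lists around growth hormone signalling, CA (red) above UDCA (blue), with bars at list medians. Filled points passed the test. The male-biased list has its median at −1.36 with CA and −1.09 with UDCA, and the female-biased list spreads to both sides with CA.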

How the data were processed

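RNA of each knockout liver and of a wild-type liver was read on the same array in Cy3 and Cy5. Per the file headers and labels, Agilent Feature Extraction 9.5.3 gave each spot's mean intensity and local background without normalization, and these deposited intensities are the main values. It also gave processed signals, and the deposited series table holds log2 ratios whose normalization the sources do not state. Its CA columns run as wild type over knockout and were turned; column medians lie between −0.05 and 0.05. Using limma 3.58.1 under R 4.3.3, and the data.table package (1.17.8) to read files, normexp (offset 50) and then loess were applied. Flagged values (0.922%) were left out and spots of a probe averaged. Probes well above background on at least 5 of 6 arrays in any channel and group were tested with terms for CA, UDCA and dye, with Benjamini-Hochberg adjustment. A listed gene is its brightest tested probe. Channel levels after Aquantile scaling compare 1 probe across arrays, and their exact tests were added after seeing the data. These tests were run only on probes whose ratios had differed between the diets, so they add no separate support. The arrays' number limits the precision. Nothing says that wild-type livers differed between diet groups. Members and lists were chosen with earlier results of these data known. All member probes are named, with up to 4 called genes of largest change per list and comparison (Jak2 and Cd79b apart, chosen after their values were seen), and for Bcl6, Socs2 and Igf1 the closest genes by correlation. Some genes that this rule names are not reported here. The fit was tested on simulated data. Probe positions are in mm7.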

Additional observations from a re-analysis of the deposited data

Results flagged for a closer look

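Stat5a (A_51_P152765) had a log2 ratio of 0.98 on CA array 1, set apart from the nearest other CA array at 0.35. It was the only 1 of 36 groups of arrays with a value standing apart in this way, and chance gives about 1 in 20. The other flagged results are differences between the diets in the same contrast with wild type, each by the test of the difference itself (limma). Bcl6 differed by 3.00 (CA minus UDCA), Socs2 by 1.31 on A_51_P107362, and Socs3 by 1.14. Socs2 A_52_P84037 differed by 1.77 and was near background outside the CA knockout channel. This probe entered the test through that channel alone, so its value is a description and no support. For Bcl6 the spot of UDCA array 2, left out as flagged, read 0.88 and lay within the CA arrays.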

How the results depend on the processing

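Of 51 member results, all kept their call without background correction, and 50 with flagged values kept. The replicate block changed no call of the 48 results it could fit, with Bcl6 at 3.27 for CA minus UDCA. Same-numbered arrays had deviation correlations from −0.22 to 0.49 and share the dye, so the numbers were not taken to pair the samples. Centring on the median shifted the median of all probes by 0.18 with CA and 0.27 with UDCA and the share of higher calls to 80.4% with CA and 94.4% with UDCA, against 57.4% and 64.2%. Member probes called with CA were then 3 (slide as a fixed block: 7) in place of 13. With UDCA they were 0 by limma, with 1 at an unadjusted p under 0.05, and 4 with processed signals (1 higher, Socs2 A_52_P84037 at 1.07), 4 with slide as a fixed and 3 as a random block and 3 at an adjusted p under 0.01, in place of 7. For the difference they were 1, 2 with slide as a fixed block and 8 with the series table, in place of 4. Genes of the lists called under median centring were 35 with CA, 18 with UDCA and 7 for the difference, in place of 67, 40 and 28. Ghr A_51_P499854 turned to 0.35 with UDCA (0.06 above the shifted median). The causes were not tested. Leaving out each array in turn gave 10 to 14 called probes with CA, 3 to 7 with UDCA (4 without UDCA array 1 or 4, 3 without 5) and 4 to 6 for the difference. Saturation limits the ratios of Ghr, Igf1 and Bcl6, and signal near background those of A_52_P84037, A_52_P54106, A_51_P281938 and Igf1 A_52_P306327.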
